A study of Mus musculus with 101 samples.

Results

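The genes described here are 10 of the 15423 in the normalized table: Zglp1, Gata2, Msx1, Msx2, Id1, Id2, Id3, Taf4b, Figla and Sohlh2. They were chosen by symbol as genes that respond to bone morphogenetic protein (BMP) or that drive oogenesis, with earlier results of these data known. Every one had a row in the table and passed the filter on low values. The values came from primordial germ cells (PGCs) that were sorted for EGFP from E13.5 mouse gonads, which were dissected with the mesonephros attached. There was 1 library per embryo, from 48 female and 53 male embryos of 56 dams. All embryos carried the OG2 transgene, EGFP under the Pou5f1 promoter and distal enhancer, on a C57BL/6J background, and gonads were typed as ovary or testis by their shape. Pregnant F0 females were given benzo[a]pyrene (BaP), a polycyclic aromatic hydrocarbon of smoke, by mouth in sesame oil at a low (0.033 mg/kg-day), middle (0.2 mg/kg-day) or high (2 mg/kg-day) dose, or the oil alone (vehicle). Dosing ran from E6.5 to E11.5 for F1 embryos and from E6.5 to E15.5 for the lineages that gave F2 and F3 embryos. F2 embryos arose from germ cells that were inside the F1 fetuses during dosing, and F3 embryos had no direct exposure. In F1, 5 vehicle, 2 low, 5 middle and 5 high dose females stood beside 5, 2, 6 and 8 males. In F2, each sex had 6 vehicle embryos and 3 at each dose. In F3, the numbers were 6, 4, 2 and 4 females and 6, 4, 4 and 3 males. Each of the 48 females came from a different dam. That dam is the embryo's own mother, so F2 and F3 embryos may share an F0 ancestor, which the labels do not name.

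In the ovary, somatic cells send BMP signals that bind type I and type II receptors on germ cells, and the receptors phosphorylate SMAD1, SMAD5 or SMAD9, which enter the nucleus with SMAD4. The Id genes, which encode helix-loop-helix proteins that block partner factors from binding DNA, and the homeobox genes Msx1 and Msx2 are classic targets of this pathway. Zglp1, a GATA-like zinc finger protein, acts downstream of BMP to start the oogenic program, and Gata2 is a GATA zinc finger factor. Taf4b is a germ cell form of a TFIID subunit, Sohlh2 is a basic helix-loop-helix factor of early oocytes and spermatogonia, and Figla is the basic helix-loop-helix factor that later turns on the zona pellucida genes.

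Recovered reads, summed over the genes of the normalized table, ranged from 5004382 to 87240533 per library with a median of 7789673, and 11 F1 libraries held more than 20000000. These sums are not the uniquely mapped reads per library that the paper gives. Values are normalized counts, scaled by the authors to each library's effective size, and differences are log2 fold changes of the normalized count plus 0.5. Summed germ cell markers (8 genes) lay between 4377 and 6561 in vehicle females and between 4759 and 11581 in vehicle males. Summed Sertoli markers (6 genes) lay between 11.6 and 36.0 in vehicle females and between 64.8 and 1189 in vehicle males. In vehicle females Aard alone had a mean of 21.1, and no other Sertoli marker had a mean above 0.392. The 6 endothelial markers summed to 7.23 to 15.1 in vehicle females and to 5.71 to 17.9 in vehicle males. Egfl7 alone had means of 8.82 and 10.1, and no other endothelial marker had a mean above 0.937. The 7 stromal markers had medians of 1.44 and 2.49, with highest sums of 24.5 and 76.1. The 5 erythroid markers had medians of 1.40 and 1.41, with highest sums of 223 and 4768. The part of any of these cells in the results was not tested, and in such pooled cells, fewer cells with a transcript and less transcript per cell cannot be told apart. One F3 male at 0.2 mg/kg-day, embryo D1390.5, stood apart from the other 52 males, and results that rest on it are given with and without it.

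The first comparison asked how the genes differ between female and male PGCs without exposure, 17 vehicle embryos of each sex. All 10 genes were higher in females in limma's test, and 8 of them passed both an adjusted p of 0.05 and 2-fold. Over all 13288 genes tested, 8.10% passed that rule in the female direction, and 28.6% were higher in females at the adjusted p alone. The medians of the 10 genes and of all genes were 3.02 and -0.0019 on the log2 scale. In 7 of the 10 genes, every vehicle female lay above every vehicle male, against 2.24% of all genes. Because the genes were chosen with earlier results of these data known, the shares over all genes are a description and not a test of the set.

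Zglp1 ran from 110.0 to 186 in vehicle females, with a median of 141, and from 14.8 to 34.5 in vehicle males, with a median of 27.6. Its log2 fold change was 2.39 (SE 0.11, adjusted p = 1.55e-35), with a wide gap between the lowest female and the highest male. Gata2 ran from 16.4 to 26.3 in vehicle females, with a median of 20.52, and from 0 to 1.82 in vehicle males, with a median of 0.369. That difference was 4.42 (SE 0.20, adjusted p = 7.98e-38), and it rests in males on few reads, a median of 3 per library. Every female held Gata2 reads, with a median of 180 per library in vehicle females.

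Both Msx genes, which encode homeodomain repressors, were far lower in males. Msx2 ran from 36.4 to 64.4 in vehicle females and from 0 to 3.55 in vehicle males, with medians of 48.9 and 1.16. Its log2 fold change of 5.04 (SE 0.27, adjusted p = 4.33e-32) was the highest of the 10 genes. Msx1 was lower and more variable, from 4.29 to 29.9 in vehicle females (median 10.9) and from 0 to 1.45 in vehicle males (median 0.320), a difference of 3.58 (SE 0.21, adjusted p = 1.59e-28). The coefficient of variation of Msx1 over vehicle females was 48.6%, against 16.7% for Msx2 and 12.9% for Gata2.

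The 3 Id genes followed the same direction with different sizes. Id1 ran from 42.2 to 105 in vehicle females (median 68.7) and from 1.10 to 7.36 in vehicle males (median 3.06), a difference of 4.31 (SE 0.21, adjusted p = 9.03e-35). Id2 ran from 94.6 to 240 in vehicle females (median 136) and from 12.5 to 43.0 in vehicle males (median 19.5), a difference of 2.72 (SE 0.14, adjusted p = 2.04e-32). Id3 was the most abundant, from 277 to 446 in vehicle females (median 372) and from 62.0 to 176 in vehicle males (median 115), with the smallest difference of the 3, 1.63 (SE 0.11, adjusted p = 3.37e-24). The Id genes thus differed in what remained in males, a median of 972 reads per library for Id3 and 29 for Id1.

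The germline factors divided. Figla ran from 1.74 to 40.7 in vehicle females (median 11.9) and from 0 to 2.01 in vehicle males (median 0.640), a difference of 3.32 (SE 0.37, adjusted p = 3.04e-13). One vehicle male lay at or above the lowest vehicle female. Taf4b was 36.6 ± 7.35 in vehicle females and 22.7 ± 7.19 in vehicle males (SD, n = 17 each), a difference of 0.70 (SE 0.12, limma adjusted p = 1.59e-07). Sohlh2 was 133 ± 43.3 in vehicle females and 79.1 ± 26.4 in vehicle males (SD, n = 17 each), a difference of 0.76 (SE 0.22, limma adjusted p = 0.00183). Both missed 2-fold, and 8 vehicle males for Taf4b and 9 for Sohlh2 lay at or above the lowest vehicle female.

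**Figure D1:**
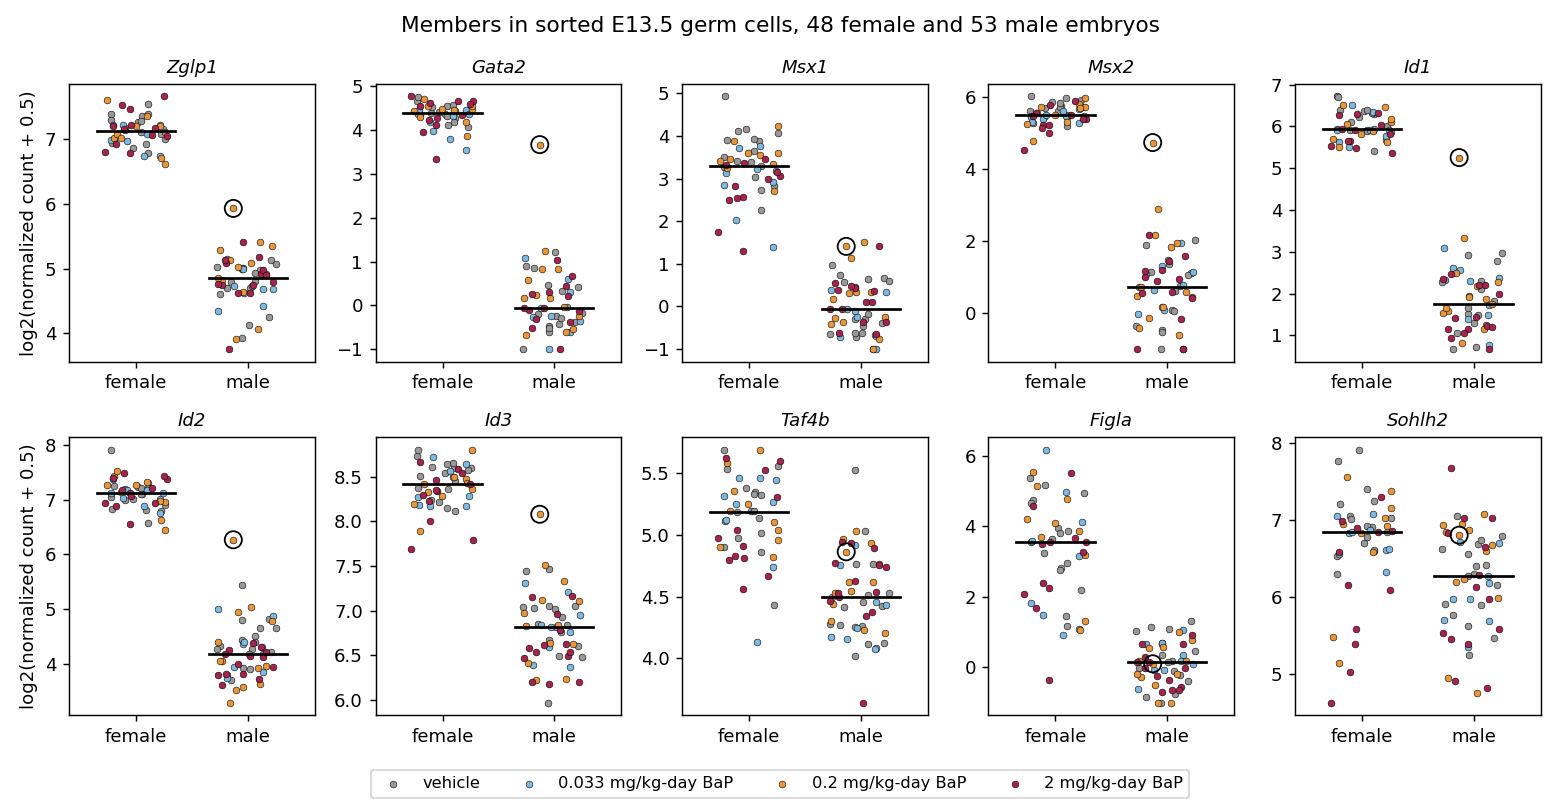
Normalized count of each gene in every embryo, on a log2 scale with 0.5 added, by gonadal sex. Each point is 1 embryo coloured by the dose given to the F0 dam, the bar is the median, and the circle marks F3 male D1390.5, which is the highest male for 6 of the 10 genes. The sexes separate fully for Zglp1, Id1 and Id2 and overlap broadly for Taf4b and Sohlh2.

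Divided by annotated exon length, the levels in vehicle females could be placed in an order. Per kilobase of exon, Id3 stood at 201 ± 27.9 and Zglp1 at 131 ± 19.3 (SD, n = 17), both apart from all that followed. Id1 at 61.9 ± 14.2, Id2 at 56.7 ± 13.0 and Sohlh2 at 56.1 ± 18.3 did not differ beyond their spread. Figla at 18.3 ± 14.2 and Msx2 at 15.3 ± 2.55 were likewise within their spread, and the wide spread of Figla also covered Taf4b at 7.11 ± 1.43. Msx1 at 3.99 ± 1.94 and Gata2 at 3.86 ± 0.498 were the lowest and within their spread, and Taf4b and Msx1 were neighbours whose spreads touched. In vehicle males Id3, at 66.02 ± 15.9 per kilobase, Sohlh2, at 33.5 ± 11.2, and Zglp1, at 24.9 ± 5.34, led. The cDNA was primed with oligo(dT), so reads may lean to the 3′ end and the order per kilobase is approximate.

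Where the genes lie matters for 1 of them. In GENCODE vM21 (GRCm38), Zglp1 is on chromosome 9 at 21062393 to 21067093, minus strand, and the protein-coding model Gm49373 on the same strand shares 1003 of its 1088 exon bases. Gm49373 was not among the rows analysed here, so reads of that model and of Zglp1 cannot be told apart. The exons of the other 9 genes shared no base with another annotated gene on either strand. Gata2 (chromosome 6, 88193891 to 88207032, plus strand) and Figla (chromosome 6, 86016171 to 86020996, plus strand) share a chromosome, and the remaining genes are on chromosomes 5 (Msx1), 13 (Msx2), 2 (Id1), 12 (Id2), 4 (Id3), 18 (Taf4b) and 3 (Sohlh2).

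Promoter windows of RefSeq (GRCm38.p6, 250 bases before to 50 after a start) were taken for 8 of the 10 genes. They gave 9 windows, since Gata2 had 2 starts. No window of Id1 or Taf4b was searched, so the counts of windows below do not cover these genes. The windows were searched on both strands for GGCGCC, a palindrome known as a GC-rich element bound by BMP-activated SMADs, and for the E-box CANNTG, the general recognition letters of basic helix-loop-helix proteins. An E-box that ends in G can share that base with GGCGCC, as happened once in Zglp1 and once in Gata2. GGCGCC stood in 4 of the 9 windows, against 11.9% of all 32851 windows. All 10 genes were higher in females, also Id3, Msx1, Msx2 and Sohlh2, whose windows held no GGCGCC. The 4 windows that carry the letters are shown, with GGCGCC in capitals:
Zglp1 (chr9:21067044-21067343, minus strand): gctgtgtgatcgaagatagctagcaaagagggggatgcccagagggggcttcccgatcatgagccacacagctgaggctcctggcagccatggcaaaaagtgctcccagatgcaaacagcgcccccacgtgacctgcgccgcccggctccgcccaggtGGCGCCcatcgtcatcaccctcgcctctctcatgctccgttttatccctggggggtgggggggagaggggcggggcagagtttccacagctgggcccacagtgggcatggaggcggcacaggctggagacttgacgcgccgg
Gata2 (chr6:88198414-88198713, plus strand): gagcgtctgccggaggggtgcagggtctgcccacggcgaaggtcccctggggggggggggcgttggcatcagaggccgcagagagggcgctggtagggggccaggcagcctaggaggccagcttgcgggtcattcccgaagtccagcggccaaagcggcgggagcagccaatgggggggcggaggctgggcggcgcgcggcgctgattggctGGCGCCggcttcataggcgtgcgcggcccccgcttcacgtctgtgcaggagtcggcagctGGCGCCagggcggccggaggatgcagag
Id2 (chr12:25096043-25096342, minus strand): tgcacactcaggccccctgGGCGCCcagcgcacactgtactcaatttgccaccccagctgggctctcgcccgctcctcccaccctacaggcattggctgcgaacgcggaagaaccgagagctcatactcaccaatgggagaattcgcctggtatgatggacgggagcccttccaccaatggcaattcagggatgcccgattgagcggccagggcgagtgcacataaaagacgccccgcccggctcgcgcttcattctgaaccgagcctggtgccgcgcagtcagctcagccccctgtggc
Figla (chr6:86016941-86017240, plus strand): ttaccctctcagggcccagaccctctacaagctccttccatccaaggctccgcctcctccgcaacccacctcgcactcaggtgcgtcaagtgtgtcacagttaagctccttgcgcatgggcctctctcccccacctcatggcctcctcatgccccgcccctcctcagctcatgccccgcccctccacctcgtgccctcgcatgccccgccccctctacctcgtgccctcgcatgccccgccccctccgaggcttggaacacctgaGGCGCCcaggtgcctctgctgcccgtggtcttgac

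Counted from the start, the first base of GGCGCC lay at -92 in Zglp1 and at -231 in Id2. In Gata2 copies lay at -38 and 23 of the downstream start, and in Figla at 16. Holding 2 or more copies was seen in 2.04% of all windows. The windows of Id3, Msx1, Msx2 and Sohlh2 and the upstream Gata2 start held none. The 9 windows had a GC content of 60.0% to 73.7%, against a median of 52.7% over all windows, and GC content and GGCGCC cannot be told apart here. CANNTG stood in 7 of the 9 windows, with 5 copies in Zglp1 and 4 in Figla, and in 72.3% of all windows.

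The sex difference was then set out by generation, in separate fits of F1, F2 and F3. The same 8 genes passed 2-fold and the adjusted p in each generation, where 8.28%, 8.34% and 8.49% of all genes did so in the female direction. Zglp1 stood at 2.41, 2.46 and 2.31 in F1, F2 and F3 (SE 0.25, 0.14 and 0.21). Gata2 stood at 4.37, 4.35 and 4.53, and Id1 at 4.45, 4.34 and 4.16. Msx2 stood at 4.45, 5.16 and 5.43 (SE 0.41, 0.32 and 0.49), and Msx1 at 3.22, 3.59 and 3.88 (SE 0.38, 0.30 and 0.38). None of the 30 tests of a difference between generations was called, and none had an unadjusted p under 0.05. Over all genes 0% were called and 1.43% had such a p, so these counts say little about the 10 genes. The largest of them was Msx2 in F3 minus F1, 0.98 (SE 0.63).

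In no generation did Taf4b or Sohlh2 pass both criteria, and they passed the adjusted p only in some. Taf4b passed it in F1 (0.91, adjusted p = 0.00111) and F2 (0.72, adjusted p = 0.000718), and stood at 0.51 in F3 (SE 0.23, adjusted p = 0.0932), where 1 vehicle male, D3402.3, reached 45.5, above the 21.1 to 41.1 of the 6 vehicle females. Sohlh2 passed it in F3 (0.75, adjusted p = 0.0349) and stood at 1.03 in F1 (SE 0.47, adjusted p = 0.111) and 0.54 in F2 (SE 0.22, adjusted p = 0.0511). Fitted on the vehicle embryos of 1 generation alone, without the exposed embryos, Sohlh2 passed it in F1 (1.03, over 2-fold, adjusted p = 0.00818) and F2 (adjusted p = 0.0247) too. The intervals of both genes overlapped between generations.

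**Figure D2:**
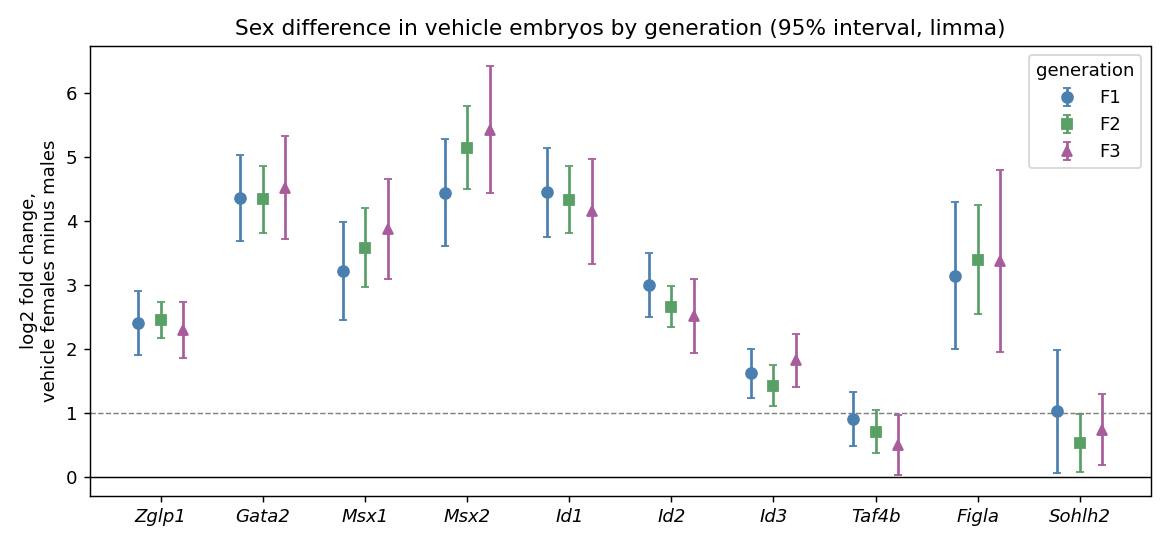
Log2 fold change of vehicle females minus vehicle males for each gene in F1 (5 of each sex), F2 and F3 (6 of each sex), with its 95% interval from limma. The solid line is 0 and the dashed line 2-fold. Points of the 3 generations lie together for each gene, and Taf4b and Sohlh2 lie below the others.

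The other genes of the pathway were taken from lists, also chosen with earlier results known, and are given at the adjusted p alone. At that threshold 28.6% of all genes were higher and 27.9% lower in females. A list with about these shares in each direction is thus like the table as a whole. Of the 2 BMP ligands that passed the filter, both were lower in female PGCs. Bmp4, the ligand needed to form PGCs in the epiblast, stood at 1.14 ± 0.563 in vehicle females and 13.99 ± 7.62 in vehicle males (SD, n = 17 each), a difference of -3.01 (SE 0.24, limma adjusted p = 1.84e-20). Bmp7 differed by -0.68 (SE 0.15, adjusted p = 3.77e-05). Bmp2, a ligand of the fetal ovary's somatic cells, stayed under the filter, with 0 to 1.36 in vehicle females.

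Among 5 receptors tested, 3 were higher in females and 1 lower. The type I receptor Acvr1 differed by 1.02 (SE 0.13, adjusted p = 1.39e-10), and Bmpr1a, the main type I receptor for BMP2 and BMP4, stood at 78.3 ± 18.1 against 47.6 ± 20.52 (0.76, SE 0.13, limma adjusted p = 3.47e-07). The type II receptor Acvr2a differed by 0.35 (adjusted p = 0.0240) and Acvr2b by -0.49 (adjusted p = 0.0439), while Bmpr2 stood at 0.21 (adjusted p = 0.367). Among the 4 SMADs, Smad9 was higher in females (1.55, SE 0.17, adjusted p = 2.08e-13) and Smad1 lower (-0.92, SE 0.16, adjusted p = 4.20e-07), with Smad5 at 0.14 and Smad4 at -0.09 not called.

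Of 11 antagonists and feedback inhibitors, 4 were higher in females, 3 lower and 4 not called, near the shares over all genes. Smad6, an inhibitory SMAD that BMP itself induces, was higher by 1.41 (SE 0.15, adjusted p = 3.09e-14), whereas the other inhibitory SMAD, Smad7, differed by -0.73 (adjusted p = 3.88e-06). The ubiquitin ligase Smurf2 differed by 0.72, Twsg1 by 0.45 and Chrd by 0.52, and the corepressor Ski by -0.65 (adjusted p = 5.14e-09). The list as a whole had a median of 0.04, near the median of all genes.

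Of 5 other BMP response genes, 4 were higher in females and 1 lower. The 4 also passed 2-fold, as did 8.10% of all genes in that direction: Gata3 (1.77, SE 0.17), Msx3 (1.46, SE 0.17), Id4 (1.33, SE 0.17) and Atoh8 (1.32, SE 0.19). Their means in vehicle females were 1.72, 1.34, 9.84 and 1.15, against 0.183, 0.144, 3.86 and 0.142 in vehicle males. Hey1, which also responds to Notch, differed by -1.93 (SE 0.29, adjusted p = 9.25e-09). The median of the list was 1.33.

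Of 6 other oogenic and meiotic entry factors tested, 3 were higher in females, 1 lower and 2 not called. Stra8, the switch to meiosis, differed by 7.40 (SE 0.44, adjusted p = 1.85e-28), Stat3 by 0.72, the oocyte homeobox gene Lhx8 by 0.51 and the dynein light chain Dynll1 by -0.33. Sohlh1, the partner of Sohlh2 in oocytes, and Nobox stayed under the filter, with means of 0.276 and 0.200 in vehicle females. Among 5 partners, Tcf12, an E protein that pairs with such factors, was higher (0.65, SE 0.11) and the E protein Tcf4 lower (-0.95, SE 0.11), and Tcf3, Taf4a and Taf12 were not called.

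Of 3 known targets of FIGLA tested, 1 was higher in females, 1 lower and 1 not called, and no mean exceeded 1.17. Zp3, which encodes a zona pellucida glycoprotein, stood at 1.17 ± 0.440 in vehicle females against 0.615 ± 0.811 in vehicle males (SD, n = 17 each), a difference of 0.72 (SE 0.20, limma adjusted p = 0.00151). Zp1 differed by -0.60 (adjusted p = 0.0318) and Padi6 by -0.04 (adjusted p = 0.871).

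The next comparison asked whether F0 exposure to BaP moved these genes in descendants. No gene of the 10 was called by limma in any of the 18 contrasts of a dose with vehicle within 1 generation and sex (180 tests, 13 with an unadjusted p under 0.05). Over all genes, 0.00836% of tests in those contrasts were called and 5.10% had such a p, and in 16 of the 18 no gene was called. In the 6 contrasts of a dose over the 3 generations, 0 of 60 tests of these genes were called (6 unadjusted), against 0.227% of all tests (6.40% unadjusted). The 8 contrasts over all doses gave 0 of 80 (6 unadjusted), against 0% of all tests (3.66% unadjusted). Since almost no gene was called in most of these contrasts, the counts of 0 do not set these genes apart. With edgeR's quasi-likelihood and likelihood ratio tests and with DESeq2 the all-dose contrasts also called 0 of the 10. For females over all doses and generations, the 10 log2 fold changes ran from -0.50 for Msx1 to 0.01 for Id2, and for males from -0.18 for Id2 to 0.24 for Msx2. Without D1390.5 the male values ran from -0.23 for Id2 (SE 0.11) to 0.14 for Msx2 (SE 0.21).

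The intervals show what sizes the data allow. Those of 2 genes in females lay below 0, although neither was called: Msx1 at -0.50 (95% interval -0.87 to -0.12, limma adjusted p = 0.563) and Sohlh2 at -0.44 (-0.82 to -0.06, the same adjusted p). For Zglp1 the effect of all doses was -0.05 in females (95% interval -0.25 to 0.15) and 0.08 in males (-0.11 to 0.28). For Id1 it was -0.23 in females (-0.60 to 0.14), for Gata2 -0.10 (-0.45 to 0.25), for Id3 -0.13 (-0.33 to 0.06) and for Taf4b -0.06 (-0.26 to 0.14). Figla was the least well fixed, at -0.31 in females (-0.96 to 0.34). A 2-fold change lay outside the intervals named here. Within 1 generation the limits are wider: Figla in F3 females at 0.2 mg/kg-day stood at -2.34 (SE 0.99, adjusted p = 0.354), from 2 exposed females with a median of 1.78 against 11.6 in 6 vehicle females. At the same dose it went the other way in F1 females (0.87, SE 0.57) and F2 females (0.61, SE 0.51). Over all generations it stood at 0.15 (SE 0.43).

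Msx1 and Sohlh2 in females at 2 mg/kg-day came nearest to a call. In that contrast, 181 of 13288 genes were called, 1.36%. Msx1 ran from 1.97 to 10.5 in the 12 exposed females, with a median of 7.02, and from 4.29 to 29.9 in the 17 vehicle females, with a median of 10.9. The log2 fold change was -0.81 (SE 0.24, adjusted p = 0.0504). Sohlh2 ran from 24.3 to 157 in the exposed females, with a median of 83.1, and from 78.2 to 241 in the vehicle females, with a median of 121. Its log2 fold change was -0.79 (SE 0.24, adjusted p = 0.0547). The groups overlapped for both genes, and both adjusted p-values lay just outside the threshold.

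By generation, Msx1 at 2 mg/kg-day stood at -0.64 in F1 (SE 0.38), -0.34 in F2 (SE 0.37) and -1.25 in F3 (SE 0.43, adjusted p = 0.243). Sohlh2 stood at -1.06 in F1 (SE 0.47), -0.17 in F2 (SE 0.27) and -0.92 in F3 (SE 0.31, adjusted p = 0.243). In F3 the 4 exposed females read 8.33, 9.50, 7.44 and 1.97 for Msx1, against 6.62 to 29.9 in the 6 vehicle females, and the lowest, E0103.2, was also the lowest female for Gata2 (9.59) and Figla (0.282). At 0.033 mg/kg-day Msx1 stood at -0.64 over all generations (SE 0.26, not called) and at 0.2 mg/kg-day at -0.05 (SE 0.25, not called). Sohlh2 stood at -0.23 (SE 0.26) and -0.29 (SE 0.25) at these doses, also not called, and no difference between doses was tested.

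These 2 values depended on the fit. The main fit had no term for generation, and exposed females numbered 5, 3 and 4 in F1, F2 and F3, against 5, 6 and 6 vehicle females. With generation as a term neither Msx1 nor Sohlh2 was called, and far fewer genes of the table were, as given in the last section. With the dam as a block, which ties females to their male littermates, both were called, Msx1 at -0.84 (adjusted p = 0.0392) and Sohlh2 at -0.82 (adjusted p = 0.0379), among 445 genes. With edgeR's quasi-likelihood test on recovered reads neither was, at -0.84 (adjusted p = 0.113) and -0.57 (adjusted p = 0.140), among 27 genes. Over 12 alternatives, of which DESeq2 gave no adjusted p for Msx1, the adjusted p ran from 0.0392 to 0.121 for Msx1 and from 0.0379 to 0.140 for Sohlh2. The 5 female libraries with more than 20000000 reads held 2 of the 12 exposed females, C4219.4 and C4258.2, with Sohlh2 at 24.3 and 32.2 and Msx1 at 2.88 and 5.38. Without such libraries Msx1 stood at -0.70 (adjusted p = 0.115) and Sohlh2 at -0.56 (adjusted p = 0.133), and no gene of the table was called. Summed germ cell markers had a median of 7275 in the exposed and 5802 in the vehicle females, and within groups of the 48 females that sum correlated with Sohlh2 at -0.64, Msx2 at -0.51, Msx1 at -0.49 and Id1 at -0.43. The part of depth and of that sum in these values was not tested.

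**Figure D3:**
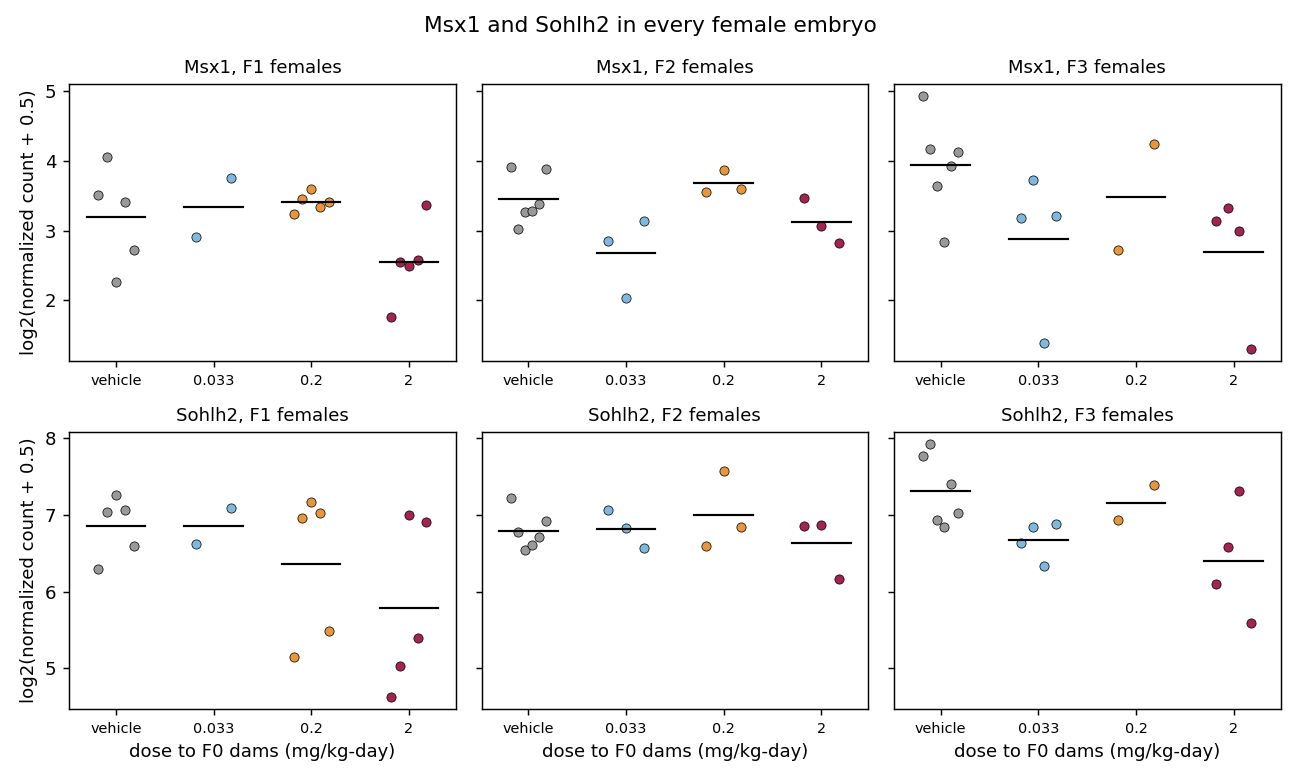
Msx1 and Sohlh2 in each female embryo, as log2 of the normalized count plus 0.5, by generation and by the dose given to the F0 dam. Points are embryos and bars are group means. At 2 mg/kg-day most points sit low in F1 and F3, and they overlap those of vehicle.

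**Figure D4:**
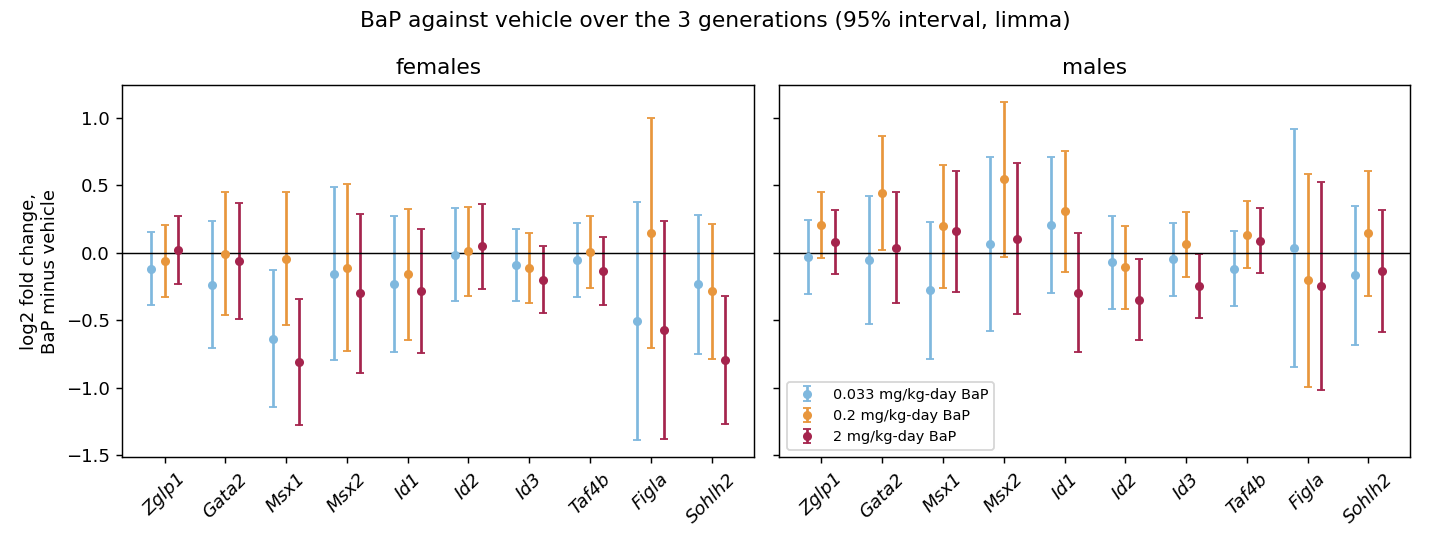
Log2 fold change of BaP against vehicle for each gene over the 3 generations, with its 95% interval from limma, in females (left) and males (right). The 3 doses are side by side. Most intervals cover 0, and Msx1 and Sohlh2 in females at 2 mg/kg-day lie lowest.

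Among males, the largest values came from F3 at 0.2 mg/kg-day. Msx2 read 6.90, 26.1, 0.630 and 3.34 in the 4 exposed males and 0 to 3.55 in the 6 vehicle males, a difference of 2.02 (SE 0.54, adjusted p = 0.156). Gata2 read 1.85, 12.2, 0.630 and 0.476 in the same males against 0 to 0.878 in vehicle, a difference of 1.41 (SE 0.44, adjusted p = 0.203). Id3 read 181, 270.0, 98.6 and 161, against 62.0 to 131 in vehicle, a difference of 0.72 (SE 0.23, adjusted p = 0.205). One embryo, D1390.5, was the highest in all 3 genes. Without it, Msx2 stood at 1.25 (adjusted p = 0.787), Gata2 at 0.61 (adjusted p = 0.816), Id3 at 0.49 (adjusted p = 0.804) and Id1 at 0.07, down from 0.85. Zglp1 went from 0.15 to -0.19 and Id2 from 0.18 to -0.35.

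Embryo D1390.5 was the highest of the 53 males for Zglp1, Gata2, Msx2, Id1, Id2 and Id3, and its littermate D1390.1 was second for Gata2, Msx2, Id1 and Id3. Zglp1 was 60.3, against 13.0 to 42.2 in the other 52 males and 97.4 to 201 in females. Id1 was 37.6, against 1.09 to 9.59 in the other males and 40.9 to 105 in females. Id2 was 76.4, against 9.27 to 43.0 and 87.1 to 240.

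Between the mean of the other males (0%) and that of the females (100%) on the log2 scale, D1390.5 lay at 84.4% for Gata2, 83.9% for Msx2, 82.4% for Id1, 80.8% for Id3 and 71.3% for Id2. It lay at 48.7% for Zglp1, 44.1% for Msx1 and -0.3% for Figla, which read 0.575. Of the 10 genes, the 7 BMP response genes and GATA factors thus lay from near the midpoint to most of the way toward females, and Figla lay at the male mean. Other BMP response genes differed in this embryo. Msx3 read 0.718, the highest of the 53 males, against a female median of 0.939. The lowest female for Msx3 read 0, which any read exceeds. Gata3 read 1.01, rank 3 and above the lowest female, at 0.759. Id4 read 4.88, rank 10, and Smad6 read 4.31, rank 6, both below the lowest female, at 4.93 and 4.77. Taf4b and Sohlh2, whose sexes overlap, read 28.6 and 111, within the range of the other males.

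Other readouts of D1390.5 went both ways. Stra8 read 14.7, the highest of the males, against 0 to 14.1 in the others and 9.12 to 882 in females, with a female median of 397. The Y-linked gene Eif2s3y read 109, the lowest of the males, against 114 to 380.0 in the others and 0 in every female, and Ddx3y was also the lowest, at 3.45. Kdm5d ranked 52 of 53, at 2.59, whereas the Y-linked gene Uty read 8.62, rank 21 and above the median of the other males, 7.94. Of the meiotic genes besides Stra8, Rec8 read 3.16, rank 2 and above the lowest female at 1.13, Dmc1 read 18.8, rank 5 and below the lowest female at 20.4, and Sycp3 read 216, rank 19, against a female median of 579. Of genes of the male germ cell program, Nanos2 read 0, rank 48, where the lowest of the other males also read 0 and their median was 1.86. Dnmt3a read 5.89, rank 51, Piwil4 read 2.16, rank 15, and Tdrd9 read 0.718, rank 29. Pou5f1 read 93.1, rank 29. The Sertoli marker Cst9 read 18.1, the lowest of the males, against 18.6 to 1346, and Bmp4 read 2.16, the lowest, against 2.92 to 30.7. The part of other cells and of these Y-linked and Sertoli levels in the values was not tested. With D1390.5, 3 of the 10 genes had every female above every male, against 0.233% of all genes. Without it the count was 6, against 0.497% of all genes, and leaving out the highest male can only raise such counts.

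The effect of exposure was also compared between the sexes and between the generations directly. None of the 100 such tests was called by limma, as was 0% of all tests over the table, and 3 had an unadjusted p under 0.05, against 2.50% of all tests: Id2 between the sexes in F2, and Msx2 and Id3 between F3 and F2 in males. Msx1 over all doses and generations differed by -0.52 between females and males (SE 0.26, 95% interval -1.05 to 0.00). F3 males include D1390.5: with and without it, Msx2 in F3 minus F2 stood at 1.15 (SE 0.54) and 0.89 (SE 0.50), and Id3 at 0.55 (SE 0.23) and 0.48 (SE 0.22).

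Within groups, the 10 genes did not vary as 1 block. After the mean of each generation, sex and dose was removed, 37 of 45 pairs correlated above 0 across the 48 females and 11 pairs above 0.5, with a median of 0.33. Id1 and Id3 were closest (r = 0.79), then Msx2 and Sohlh2 (0.74), Id2 and Figla (0.68), Msx1 and Figla (0.63), Msx1 and Id1 (0.60) and Taf4b and Figla (0.59). Zglp1 correlated with Id2 at 0.55, with Figla at 0.34, with Sohlh2 at -0.27 and with the others at 0.00 to 0.20. Across the 53 males the median was 0.09 and 2 pairs exceeded 0.5, Gata2 with Msx2 (0.55) and Msx2 with Id3 (0.51), while Id3 and Taf4b stood at -0.53. Without D1390.5 the male median was 0.03 and no pair exceeded 0.5: Gata2 with Msx2 stood at 0.42, Msx2 with Id3 at 0.43, and Id3 with Taf4b at -0.57. These are descriptions across embryos that also share depth and, in males, some litters, and male values of Gata2, Msx1 and Msx2 rest on few reads. Across the 53 males, summed endothelial markers correlated with Id3 at 0.67, Msx2 at 0.50 and Taf4b at -0.40. Summed mesonephric epithelium markers, 3 genes at only 0 to 2.12 in vehicle males, correlated with Gata2 at 0.58, Msx2 at 0.48 and Figla at -0.43. Across the 48 females the endothelial sum stood at 0.11 with Id3, 0.14 with Msx2 and -0.28 with Taf4b. There the mesonephric sum stood at -0.28 with Gata2, -0.19 with Msx2 and -0.32 with Figla. D1390.5 is included in the male values, and the part of such cells in the correlations was not tested.

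**Figure D5:**
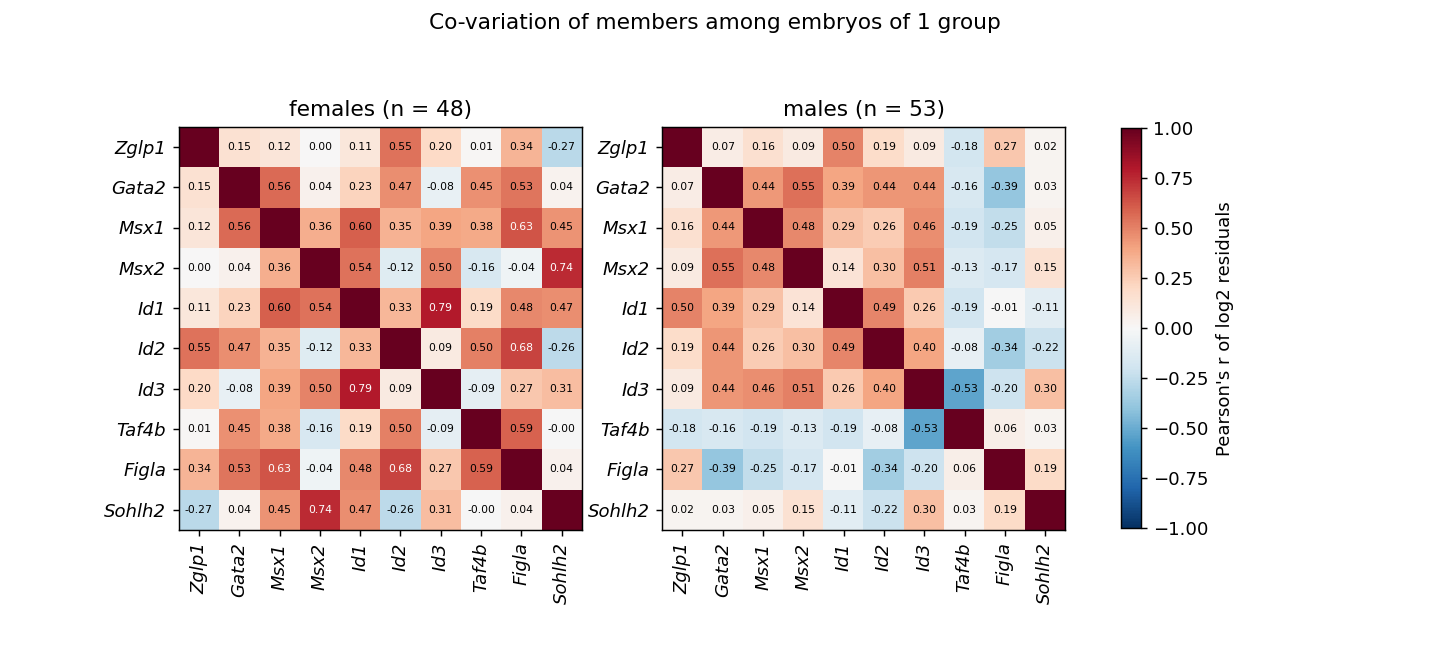
Pearson's r between each pair of genes across 48 female (left) and 53 male (right) embryos, on log2 values after the mean of each generation and dose was removed. Red is positive and blue negative. In females Id1 with Id3 (0.79) and Msx2 with Sohlh2 (0.74) are the strongest pairs, and in males correlations are weaker.

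The genes of the table most like 3 of the members across the 48 females were named by a rule, among 8394 others with a mean of at least 5. For Figla they were Inca1 (r = 0.97), H2-Ab1 (0.97), H2-K1 (0.96), Dnajc5g (0.95) and Lypd4 (0.94), against a median of 0.00 over all genes. Leaving out the 2 females farthest from the median of Figla gave 0.96 for both Inca1 and H2-Ab1. H2-Ab1, which encodes a chain of a class II histocompatibility antigen, ran from 0 to 78.5 in females with a median of 8.26 and stood at 1.01 in the median male. H2-K1, a class I antigen, ran from 0.423 to 50.3 in females. Figla itself ran from 0.282 to 71.5 over all females, also a wide range from embryo to embryo.

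For Id1 the most alike genes were Sdhc (0.79), Id3 (0.79), Ten1 (0.78), Rp9 (0.77) and Snrpb (0.76). For Zglp1 they were 1190007F08Rik (0.80), Hcfc1r1 (0.79), Pxmp4 (0.79), Trnp1 (0.78) and 1700013G23Rik (0.77). Trnp1 was also far higher in females, with a median of 16.1 against 1.25 in males. Recovered reads correlated with Id2 at 0.51 and with Sohlh2 at -0.38 within female groups, and with Id1 at 0.05.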

How the data were processed

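The members and gene lists were chosen with earlier results of these data known. PGCs were sorted for EGFP from E13.5 gonads, cDNA was made with an oligo(dT)-primed low-input kit without strand information, and 1 library was sequenced per embryo. Per the labels and the study's methods, the authors trimmed reads with Trim Galore, aligned them with STAR to mm10, counted exon reads with Rsubread and normalized with edgeR (versions not given in the sources used here). The deposited table holds a normalized signal, counts divided by a TMM-scaled library size, in which whole reads were recovered for 99 of 101 libraries (100% of values whole within 0.05). The other 2 libraries, an F3 vehicle female and an F3 male at 2 mg/kg-day, were left out of count tests only. No 2 of 184 pairs of libraries within a group agreed within sampling noise (lowest chi-square per degree of freedom 5.44).

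Filtering kept genes whose mean reached 0.5, and limma 3.58.1 (R 4.3.3) tested them on log2(value + 0.5) with a trend, with Benjamini-Hochberg adjustment over all genes. Fold changes on this scale understate the change of low genes. The vehicle sexes and the 3 generations together were compared in 1 fit of 101 embryos in 8 groups of sex and dose, single generations in fits of their own, and differences between generations in 1 fit of all groups. A sex difference was called at an adjusted p under 0.05 and over 2-fold, an exposure effect at the adjusted p. For all doses, the 3 dose effects were averaged. Embryo names carry the dam's number, and embryos of 1 dam are littermates, so the dam was tried as a block (correlation 0.262 within dams over all embryos). Libraries of a group came from separate embryos. edgeR 4.0.16 and DESeq2 1.42.0 were run on the recovered reads as alternatives, with other pseudocounts, filters and scaling. The script was tested on simulated data. Exon length and position came from GENCODE vM21, and promoters from RefSeq. All 10 members are named, genes of the lists by the smallest p, up to 4 per list and direction among those called, and the 5 genes most like Zglp1, Id1 and Figla by Pearson's r. One gene of the lists is counted but not reported here.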

Additional observations from a re-analysis of the deposited data

Results flagged for a closer look

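In 6 of 140 tests, 1 for each of the 10 genes in each group of 4 to 8 embryos, the lowest or highest embryo stood far from the rest, and chance gives about 1 in 20. F3 vehicle male D3402.3 read 14.8 for Zglp1, below the next at 27.3, and 45.5 for Taf4b, above the next at 22.6. F3 male D2549.3 at 0.033 mg/kg-day read 0 for Msx1, where the next read 0.108, a gap of few reads. F3 female E0103.2 at 2 mg/kg-day read 1.97 for Msx1, below the next at 7.44. F1 male D2587.2 at 2 mg/kg-day read 4.13 for Id1, above the next at 2.23. F1 male D2582.2 at 2 mg/kg-day read 11.98 for Taf4b, below the next at 20.2.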

How the results depend on the processing

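The count of sex calls was 8 under 13 of 14 alternatives and 9, with Sohlh2 added, in the vehicle embryos of F1 alone. The direction of all 10 differences was the same under the 14, and all 10 passed the adjusted p under each, except that Taf4b stood at 0.51 (adjusted p = 0.106) in the vehicle embryos of F3 alone. The 286 recounts of the 8 all-dose contrasts all gave 0 members. At 2 mg/kg-day in females of all generations, 0 members were called, 1 with a pseudocount of 1, 2 with a minimum mean of 5 and 2 with the dam as a replicate block, and leaving out each of 29 females in turn gave 0 to 2 (added after seeing the data): both without D2587.1, D1669.5, D3620.3, D2204.1 or D4190.2 of the exposed or C4232.9, D2580.1, D2991.1, D2996.1 or D3526.1 of the vehicle females, and Msx1 alone without vehicle females C4605.2, C4992.1 or D3001.2. The counts of all genes then ran from 0 to 1030, so that contrast is unstable, and the cause was not tested. Over all genes it called 181, against 445 with the block, 27 by edgeR's quasi-likelihood test, 141 by its likelihood ratio test, 172 by DESeq2, 21 with a pseudocount of 0.1, 19 with no filter, 276 with a pseudocount of 1, 414 with a minimum mean of 5, 1 with generation as a term and 0 without the deepest libraries. The block changed no other call. Leaving out F3 male D1390.5 (also added) reversed Zglp1 to -0.19 and Id2 to -0.35 at 0.2 mg/kg-day in F3 males, where the count was 0 with and without it. At a median of 3 to 11 reads per vehicle male library, Gata2, Msx1, Msx2 and Figla cannot show a fall in males.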
